A study of Caenorhabditis elegans with 104 samples.

Results

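The 9 genes described here encode factors of the elongation and initiation steps of translation in Caenorhabditis elegans. They were picked by sequence name, with no threshold on their values: eef-1A.1 (F31E3.5), eef-1A.2 (R03G5.1), eef-2 (F25H5.4), pab-1 (Y106G6H.2), pab-2 (F18H3.3), ife-1 (F53A2.6), ife-2 (R04A9.4), ife-4 (C05D9.5) and ifg-1 (M110.4). All 9 were among the 18889 genes measured, and each had a value in every worm. The gene pab-2 had 2 probes and the other 8 genes had 1 probe each. Each array held the RNA of 1 whole worm of the wild-type strain N2, labelled with Cy5, beside RNA pooled from 15 N2 worms aged 4 days, labelled with Cy3. The ages were day 4 (13 worms), day 8 (17 worms), day 12 (17 worms), day 14 (17 worms), day 16 (17 worms), day 20 (14 worms) and day 24 (9 worms). All worms were untreated and came from 1 cohort laid within 2 hours and grown at 20 °C on OP50 bacteria, so age and the day of harvest cannot be told apart. Only worms still alive could be picked at each age.

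Every value below is a log2 ratio of a worm to the pool, so 1 unit is a 2-fold difference and 0 means the same level as in the pool. The log base and the direction, worm over pool, were taken from the usual convention of red over green and are not stated for these tables. A reversed direction would turn every sign, and another base would change every fold. Because each value is a ratio to the pool, the level of 1 gene cannot be set against that of another gene. A gene was called where its Benjamini-Hochberg adjusted p from limma, over all 18889 genes, was under 0.05. The spread behind each p-value is that of single worms from 1 cohort.

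In elongation, eEF1A carries aminoacyl-tRNA to the ribosome and eEF2 moves the ribosome along the message. In initiation, eIF4E binds the cap of the mRNA, the scaffold eIF4G joins it to the rest of the initiation machinery, and the poly(A)-binding protein holds the tail of the mRNA and also binds eIF4G. In C. elegans several of these factors have more than 1 gene, with 1 copy on the X chromosome and another on an autosome. The X chromosome is largely silenced through much of germ cell development, so X-linked copies are mostly read in somatic tissue, while autosomal copies can serve the germ line as well. Here eef-1A.2, pab-2, ife-2 and ife-4 lie on X. The genes eef-1A.1 and ife-1 lie on chromosome III, eef-2 and pab-1 on chromosome I, and ifg-1 on chromosome II. The division is not strict, since the promoter of eef-1A.1 is widely used to drive expression in somatic tissues.

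With age, 5 of the 9 genes rose and 0 fell. The 5 were eef-1A.2, pab-2, ife-4, ifg-1 and eef-2, in order of slope. Over all genes, 27.8% were called for the trend, 13.7% higher and 14.2% lower with age. The median slope of the 9 genes was 0.0324 per day, beside 0.0002 per day over all genes. Tested for any difference between ages, 5 of the 9 genes were called, at a background of 33%, and these were again eef-1A.2, pab-2, ife-4, ifg-1 and eef-2 (adjusted p = 0.0428 for eef-2). After quantile normalization eef-2 was not called (adjusted p = 0.0542), and robust regression also called ife-1 (adjusted p = 0.00282). Pairwise against day 4, 4 genes were called higher at each of days 12, 14, 16, 20 and 24, namely eef-1A.2, pab-2, ife-4 and ifg-1. Of all genes, 11.5% were called higher at day 12, 10.5% at day 14, 10.2% at day 16, 9.98% at day 20 and 8.35% at day 24. These comparisons share the day 4 worms.

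**Figure D1:**
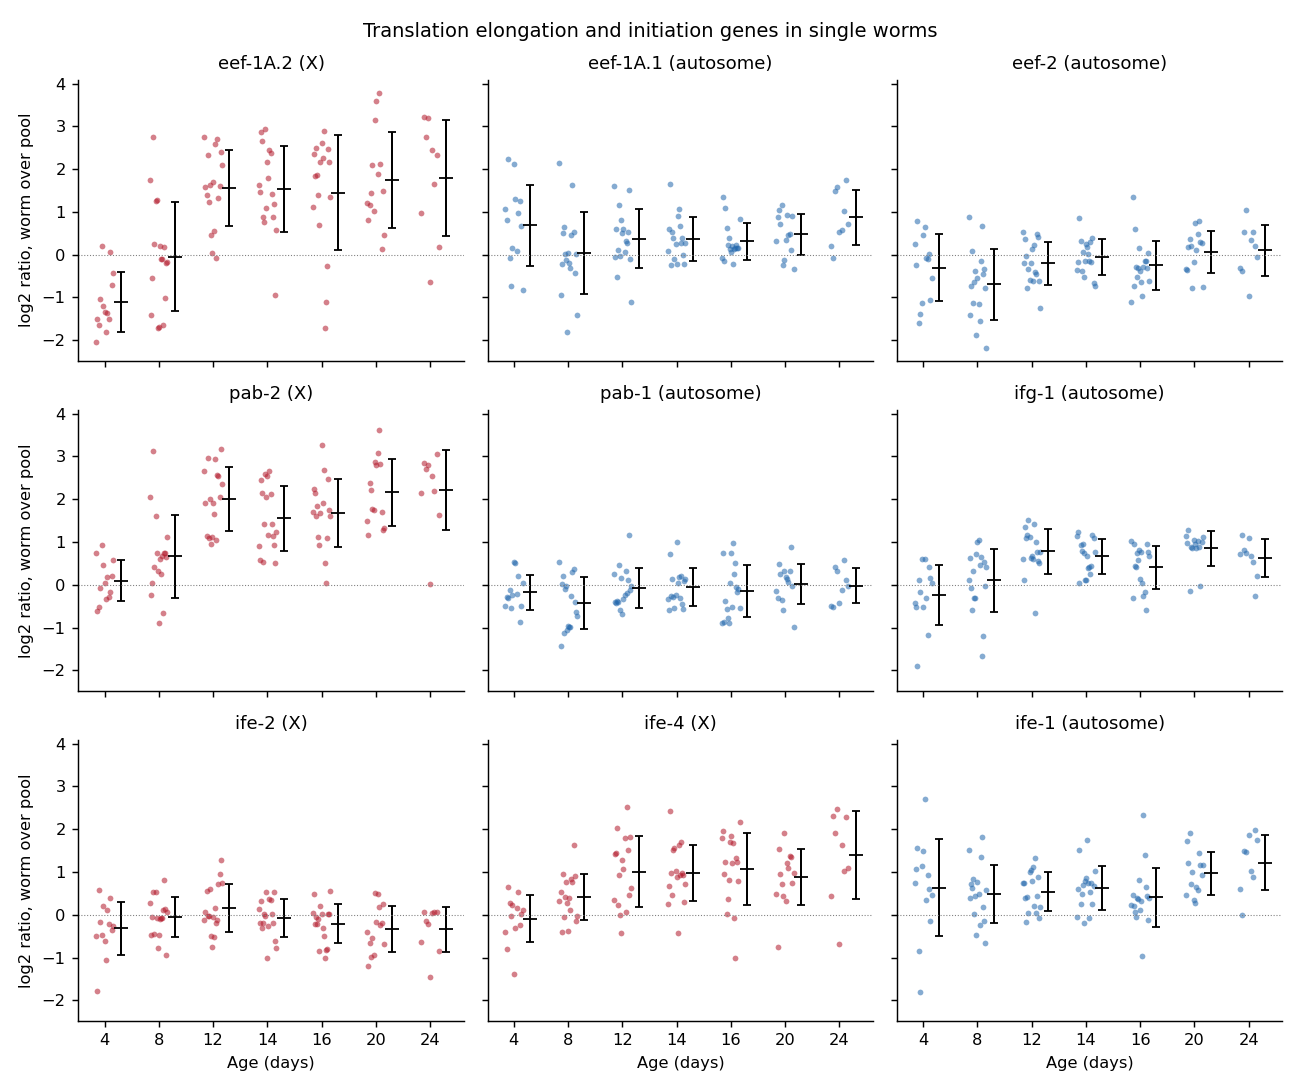
Log2 ratio of worm to pool (vertical axis) of each of the 9 genes against age in days (horizontal axis). Points are single worms, bars are the mean and SD of each age, red marks genes on X and blue marks genes on autosomes. The 17 day 12 worms lay between 0.96 and 3.17 for pab-2, all above the highest day 4 worm at 0.93.

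For eef-1A.2, pab-2, ife-4 and ifg-1, most of the difference from day 4 was present by day 12. For eef-2 the difference was 0.11 at day 12 and 0.40 at day 24, and for ife-1 it was -0.10 and 0.59, none of them called. At day 8 limma called 0 of the 9 genes against day 4, at a background of 11.4%. The unadjusted p from limma was under 0.05 for 4529 of all 18889 genes and for 2 of the 9. These were eef-1A.2, at 1.04 ± 0.40 (SE, adjusted p = 0.0787), and eef-1A.1, at -0.66 ± 0.26 (SE, adjusted p = 0.077). Both were called after quantile normalization, eef-1A.2 at 1.05 and eef-1A.1 at -0.73, beside 12.4% of all genes. Robust regression called eef-1A.1 alone at -0.68, beside 14.3% of all genes. At day 12 against day 8, a comparison chosen after the day 4 contrasts had been seen, pab-2 rose by 1.34 ± 0.27, eef-1A.2 by 1.60 ± 0.38 and ifg-1 by 0.67 ± 0.19 (SE). These were 3 of the 9 genes, beside 7.76% of all genes that were called higher. At day 24 against day 12, limma called 0 of the 9 genes, at a background of 1.13%. Robust regression called 1, beside 3.44% of all genes. The unadjusted p from limma was under 0.05 for 2310 of all 18889 genes and for 2 of the 9. The 2 genes were ife-1, at 0.69 ± 0.28, and ife-2, at -0.50 ± 0.21 (SE). A trend fitted to days 12 to 24 alone called 1 of the 9 genes, ife-1, at 0.0592 per day (adjusted p = 0.0236), beside 5.55% of all genes.

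**Figure D2:**
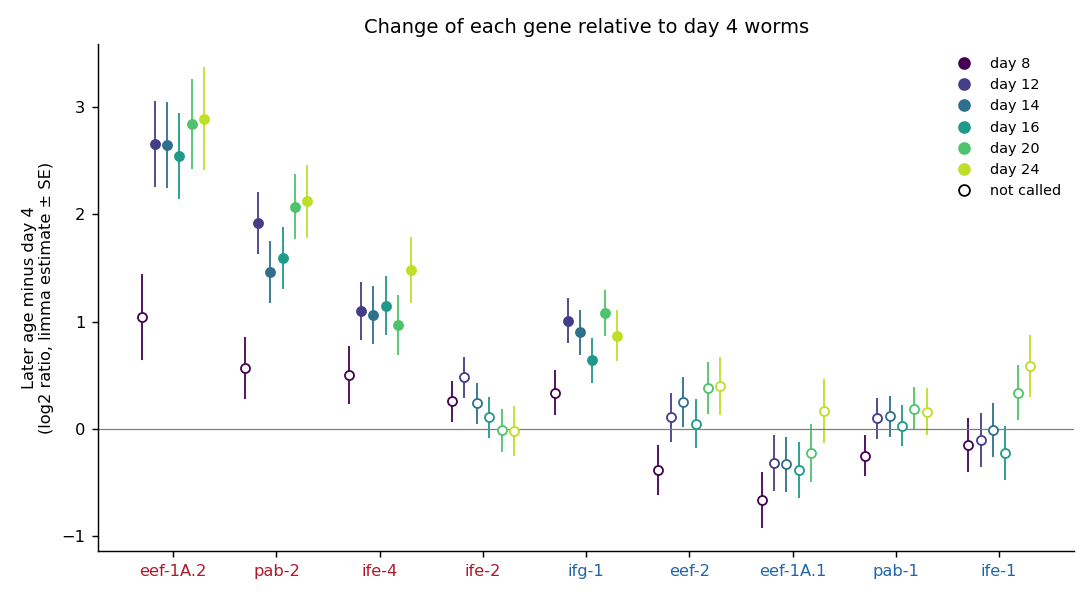
Difference in log2 ratio from day 4 (vertical axis) for each of the 9 genes (horizontal axis), coloured by later age in days, as the limma estimate and its SE. Gene names in red lie on X and those in blue on autosomes. Filled points were called and hollow points were not: eef-1A.2, pab-2, ife-4 and ifg-1 were called from day 12 on, and no gene was called at day 8.

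Among the elongation factors, the X-linked eEF1A gene had the steepest slope of the 9 genes. The median log2 ratio of eef-1A.2 was -1.33 at day 4, -0.11 at day 8, 1.61 at day 12, 1.47 at day 14, 1.86 at day 16, 1.47 at day 20 and 2.34 at day 24. Single worms spanned -2.05 to 0.21 at day 4, -1.71 to 2.75 at day 8, -0.08 to 2.75 at day 12, -0.95 to 2.94 at day 14, -1.71 to 2.88 at day 16, 0.14 to 3.79 at day 20 and -0.63 to 3.22 at day 24. Of the 74 worms aged 12 to 24 days, 65 lay above the highest day 4 worm, and the ranges overlapped with day 4 at every age. At day 24 against day 4 the difference was 2.89 ± 0.48 (SE), or 7.42-fold, with an adjusted p of 2.05e-06. At day 12 it was already 2.65 ± 0.40 (SE), or 6.26-fold. The slope over all ages was 0.149 ± 0.0202 per day (SE, adjusted p = 3.27e-09).

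The autosomal eEF1A gene was not called over the trend. The median of eef-1A.1 was 0.82 at day 4, 0.01 at day 8, 0.33 at day 12, 0.27 at day 14, 0.16 at day 16, 0.47 at day 20 and 0.71 at day 24. Worms spanned -0.07 to 1.74 at day 24 and -0.82 to 2.23 at day 4, and 0 of the 74 worms aged 12 to 24 days lay above the highest day 4 worm. The slope of eef-1A.1 was 0.0135 ± 0.0122 per day (SE, adjusted p = 0.461), with a 95% interval of -0.0104 to 0.0373. The gene was lowest on average at day 8, and day 24 worms exceeded day 8 worms by 0.84 ± 0.29 (SE, adjusted p = 0.0329), a comparison added after the others were seen. That comparison called 5 of the 9 genes, all higher at day 24, beside 7.75% of all genes. After quantile normalization the eef-1A.1 difference was 0.77 and not called (adjusted p = 0.0604), which left 4 of the 9 genes, beside 14.4% of all genes called in either direction. Without the day 4 worms the slope of eef-1A.1 was 0.0414 per day and was called (adjusted p = 0.0238). The spread between worms of 1 age was wide early, with an SD of 0.95 at day 4 and 0.96 at day 8, and an SD between 0.43 and 0.69 at later ages.

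The gene eef-2, for the translocation factor, rose slightly. Its median was -0.10 at day 4, -0.63 at day 8, -0.20 at day 12, -0.15 at day 14, -0.30 at day 16, 0.18 at day 20 and 0.20 at day 24. Worms spanned -0.96 to 1.04 at day 24 and -1.59 to 0.79 at day 4, so the groups overlapped almost throughout, and 3 of the 74 worms aged 12 to 24 days lay above the highest day 4 worm. The slope was 0.0324 ± 0.0107 per day (SE, adjusted p = 0.0147). At day 24 against day 4 the difference was 0.40 ± 0.27 (SE, adjusted p = 0.343), and against day 8 it was 0.79 ± 0.25 (SE, adjusted p = 0.0222). The trend of eef-2 was not called once the germline mean described below was a covariate, at 0.0232 per day (adjusted p = 0.138).

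The poly(A)-binding proteins gave a second pair in which the X-linked gene rose. The median of pab-2 was 0.03 at day 4, 0.65 at day 8, 2.01 at day 12, 1.41 at day 14, 1.71 at day 16, 2.0 at day 20 and 2.55 at day 24. Single worms spanned -0.61 to 0.93 at day 4, -0.89 to 3.12 at day 8, 0.96 to 3.17 at day 12, 0.50 to 2.65 at day 14, 0.03 to 3.26 at day 16, 1.15 to 3.62 at day 20 and 0.02 to 3.06 at day 24. The ranges at days 12 and 20 did not overlap with that at day 4, and 65 of the 74 worms aged 12 to 24 days lay above the highest day 4 worm. The difference at day 24 against day 4 was 2.12 ± 0.34 (SE), or 4.36-fold, with an adjusted p of 1.16e-06. The slope was 0.110 ± 0.0143 per day (SE, adjusted p = 1.06e-09). Both pab-2 probes gave it: 0.111 ± 0.0141 per day for the F18H3.3a target and 0.108 ± 0.0174 per day for the F18H3.3b target (SE). From day 4 to day 8 the mean went from 0.29 to 0.44 for F18H3.3a and from -0.12 to 0.88 for F18H3.3b. This difference between the probes was not tested. Across all worms the 2 probes of pab-2 had a Pearson r of 0.77, and of 0.65 after each age's mean was removed.

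Its autosomal counterpart pab-1 had a median of -0.24 at day 4, -0.40 at day 8, -0.19 at day 12, -0.23 at day 14, -0.18 at day 16, 0.09 at day 20 and -0.03 at day 24. Worms spanned -0.53 to 0.57 at day 24 and -0.88 to 0.53 at day 4, nearly the same range. The slope of pab-1 was 0.0164 ± 0.00875 per day (SE, adjusted p = 0.163), with a 95% interval of -0.00079 to 0.0335.

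Of the 3 cap-binding eIF4E genes, ife-4 rose and ife-1 and ife-2 were not called. The gene ife-1 encodes a form that works in the germ line, where it is needed for sperm development, while ife-2 and ife-4 encode forms found mainly in somatic tissue, and loss of ife-2 is known to lengthen life. The median of ife-4, on X, was 0.01 at day 4, 0.39 at day 8, 1.07 at day 12, 0.93 at day 14, 1.23 at day 16, 0.96 at day 20 and 1.64 at day 24. Single worms spanned -1.38 to 0.65 at day 4, -0.41 to 1.64 at day 8, -0.42 to 2.51 at day 12, -0.43 to 2.42 at day 14, -1.0 to 2.16 at day 16, -0.75 to 1.90 at day 20 and -0.68 to 2.48 at day 24. At every age some worms overlapped with day 4, and 53 of the 74 worms aged 12 to 24 days lay above the highest day 4 worm. The difference at day 24 against day 4 was 1.48 ± 0.31 (SE), or 2.79-fold (adjusted p = 0.000236), and the slope was 0.0634 ± 0.0127 per day (SE, adjusted p = 3.51e-05).

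The other X-linked eIF4E gene, ife-2, was not called over the trend. Its median was -0.27 at day 4, -0.07 at day 8, -0.03 at day 12, -0.02 at day 14, -0.10 at day 16, -0.33 at day 20 and -0.15 at day 24. Worms spanned -1.45 to 0.07 at day 24 and -1.79 to 0.57 at day 4. The slope of ife-2 was -0.00905 ± 0.00915 per day (SE, adjusted p = 0.52), with a 95% interval of -0.027 to 0.00887. Its highest mean was at day 12, where the difference from day 4 was 0.48 ± 0.19 (SE, adjusted p = 0.0583), called with array weights (0.56, adjusted p = 0.0359).

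For ife-1 the median was 0.73 at day 4, 0.49 at day 8, 0.43 at day 12, 0.67 at day 14, 0.36 at day 16, 0.96 at day 20 and 1.46 at day 24. For ife-1, day 24 worms spanned 0.00 to 1.99 and day 4 worms -1.80 to 2.71, the widest range of any age, so that 0 of the 74 worms aged 12 to 24 days lay above the highest of them. The slope was 0.0274 ± 0.0117 per day (SE, adjusted p = 0.0699). It passed the threshold without the day 4 worms (0.0436, adjusted p = 0.00959) and with the germline mean as a covariate (0.0412, adjusted p = 0.00619). On all worms ife-1 also passed with array weights (0.0302, adjusted p = 0.0389) and by robust regression (0.0275, adjusted p = 0.0418), and not after quantile normalization (0.0242, adjusted p = 0.164).

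The scaffold gene ifg-1, whose reduced activity is known to lengthen life in worms, was the autosomal gene with the steepest rise. Its median was -0.16 at day 4, 0.33 at day 8, 0.76 at day 12, 0.75 at day 14, 0.57 at day 16, 0.97 at day 20 and 0.71 at day 24. Single worms spanned -1.89 to 0.60 at day 4, -1.66 to 1.05 at day 8, -0.66 to 1.51 at day 12, 0.04 to 1.24 at day 14, -0.59 to 1.02 at day 16, -0.14 to 1.27 at day 20 and -0.27 to 1.15 at day 24. The ranges overlapped with day 4 throughout, and 48 of the 74 worms aged 12 to 24 days lay above the highest day 4 worm. The difference was 1.01 ± 0.21 at day 12 (SE, 2.02-fold) and 0.87 ± 0.24 at day 24 (SE, 1.82-fold, adjusted p = 0.00634). The slope was 0.0474 ± 0.0101 per day (SE, adjusted p = 0.000107), and without the day 4 worms it was 0.0309 per day and not called (adjusted p = 0.0615).

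The day 4 worms show how far ratios stand from 0 without a difference in age. At day 4 against the pool, 3 of the 9 genes were called, beside 18.1% of all genes: eef-1A.1 at 0.69 ± 0.19 and ife-1 at 0.63 ± 0.19 were higher, and eef-1A.2 at -1.10 ± 0.30 was lower (SE). An offset in the pool would enter every value against it and cancel in differences between ages. An offset in the day 4 worms would instead enter every difference from day 4. Which of these applied was not tested.

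The copies were then compared within the same worm, as the X-linked copy minus the autosomal one. For eIF4E the autosomal gene was ife-1, the only such gene among the 9. A total of 8 tests were made over 4 pairs, with p-values adjusted over the 8. The difference eef-1A.2 minus eef-1A.1 averaged 0.93 ± 1.31 at day 24 (SD, n = 9) and -1.79 ± 1.45 at day 4 (SD, n = 13), a gap of 2.72 ± 0.59 (SE, exact two-sided permutation p = 0.000296, adjusted p = 0.000591). All 9 day 24 worms lay above the day 4 median. It was above 0 in 7 of 9 worms at day 24 and in 2 of 13 at day 4. Its slope was 0.136 ± 0.0234 per day (SE, permutation p = 1e-05, the smallest that 100000 permutations can give, adjusted p = 4e-05). Without the day 4 worms the slope was 0.0624 per day (adjusted p = 0.0303). The eEF1A genes are near-identical copies, and probe sequences were not used here, so signal shared between their probes was not tested.

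For pab-2 minus pab-1 the mean was 2.23 ± 0.88 at day 24 (SD, n = 9) and 0.27 ± 0.71 at day 4 (SD, n = 13), a gap of 1.97 ± 0.35 (SE, exact two-sided permutation p = 3.22e-05, adjusted p = 8.58e-05). Here 8 of the 9 day 24 worms lay above the highest day 4 worm. The slope was 0.0932 ± 0.0145 per day (SE, permutation p = 1e-05, adjusted p = 4e-05). Without the day 4 worms the slope of pab-2 minus pab-1 was 0.0632 per day (adjusted p = 0.00188). In both pairs the difference between the copies within a worm was higher at day 24 than at day 4, in separate animals.

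Of the eIF4E pairs, the first had a called slope and the second did not. The difference ife-2 minus ife-1 averaged -1.56 ± 0.99 at day 24 (SD, n = 9) and -0.95 ± 1.37 at day 4 (SD, n = 13), a gap of -0.61 ± 0.50 (SE, exact two-sided permutation p = 0.266, adjusted p = 0.266). Its slope was -0.0365 ± 0.0166 per day (SE, permutation p = 0.0292, adjusted p = 0.0467), so the X-linked copy declined relative to the autosomal one. That slope was not called after quantile normalization (-0.0323, adjusted p = 0.0859), and without the day 4 worms it was -0.0702 per day (adjusted p = 0.00128). For ife-4 minus ife-1 the slope was 0.036 ± 0.0196 per day (SE, permutation p = 0.0669, adjusted p = 0.0892), with a 95% interval of -0.00231 to 0.0744, and without the day 4 worms it was 0.000871 per day (adjusted p = 0.97). The mean of ife-4 minus ife-1 was 0.16 ± 1.31 at day 24 (SD, n = 9) and -0.73 ± 1.36 at day 4 (SD, n = 13), a gap of 0.89 ± 0.58 (SE, exact two-sided permutation p = 0.142, adjusted p = 0.162). A slope over days 12 to 24 alone, added after the others were seen, was -0.0109 per day for the eEF1A pair (adjusted p = 0.755), 0.0301 for the poly(A)-binding pair (adjusted p = 0.296), -0.101 for ife-2 minus ife-1 (adjusted p = 0.00112) and -0.0408 for ife-4 minus ife-1 (adjusted p = 0.296).

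**Figure D3:**
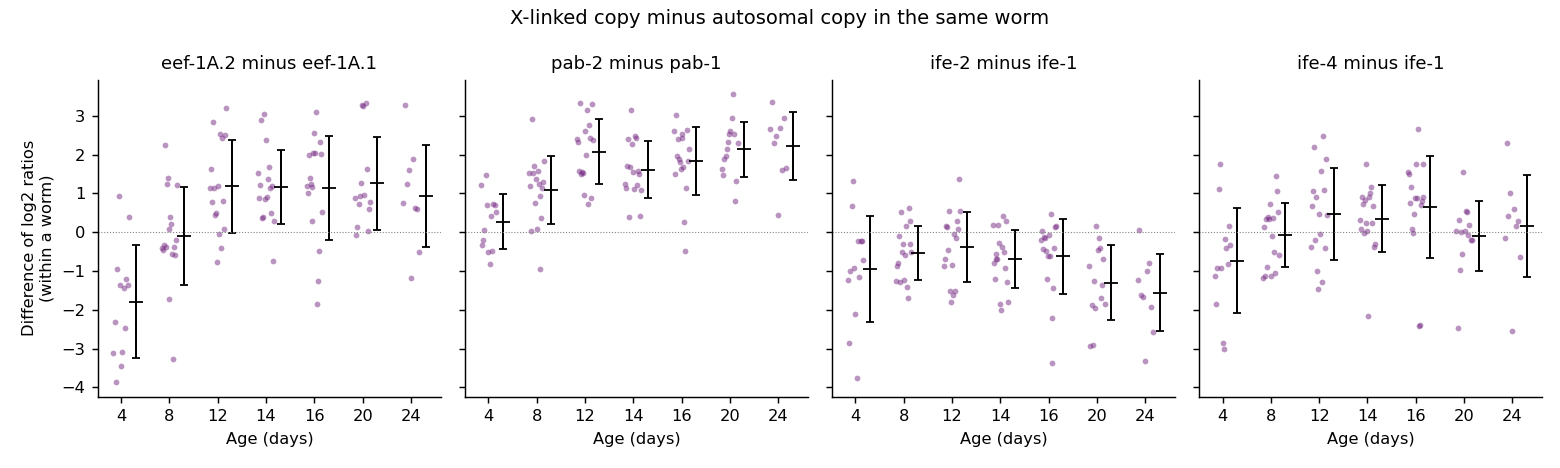
Log2 ratio of the X-linked copy minus that of the autosomal copy in the same worm (vertical axis) against age in days (horizontal axis), for 4 pairs. Points are worms and bars are the mean and SD, and for pab-2 minus pab-1 the mean was 2.23 at day 24 and 0.27 at day 4.

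Germline transcripts also changed over these ages, and in whole worms fewer cells of a type and less RNA per cell cannot be told apart. Of 41 germline and oocyte markers, 24 fell and 4 rose over the trend. Their mean log2 ratio per worm spanned -0.68 to 0.16 at day 4, -0.35 to 0.51 at day 8, -1.58 to 0.27 at day 12, -1.31 to 0.27 at day 14, -1.30 to 0.45 at day 16, -1.13 to 0.01 at day 20 and -1.53 to -0.15 at day 24. Of 9 sperm markers 4 rose and 0 fell, of 13 body wall muscle markers 0 rose and 5 fell, and of 12 intestinal markers 0 rose and 6 fell. Of 14 neuronal markers 5 rose and 1 fell, of 10 hypodermal markers 1 rose and 4 fell, and of 7 pharyngeal markers 1 rose and 0 fell. Ratios to a pool do not show whether a marker was present or absent. Among the 64 genes of cytosolic ribosomal proteins, 14 rose and 1 fell. Over all genes, 13.7% rose and 14.2% fell, and no list was tested against these shares. With the germline mean of each worm as a covariate, the slope was 0.105 per day for eef-1A.2 (adjusted p = 7.77e-07), 0.0783 for pab-2 (adjusted p = 1.91e-07), 0.0413 for ife-4 (adjusted p = 0.00578) and 0.043 for ifg-1 (adjusted p = 0.00134). Without the covariate these slopes were 0.149, 0.11, 0.0634 and 0.0474 per day. The fit with the covariate called these 4 genes and ife-1, and not eef-2. Of all genes it called 18.5%, and 8.78% were called higher. The part of the other marker lists in these slopes was not tested.

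Worms of 1 age differed from each other, and the X-linked genes followed those differences together. Each worm's deviation from the mean of its age was taken for every gene, and the 36 pairs of the 9 genes were correlated over all worms, with p-values adjusted over the 36, an analysis added after the first results. All points share the same pool and were scaled array by array. All 6 pairs of X-linked genes were positively correlated and called (r 0.47 to 0.82), the closest being eef-1A.2 with pab-2 (Pearson r = 0.82, Spearman rho = 0.79, permutation p = 1e-05 each, adjusted p = 3.27e-05 for r). Its r was 0.79 without the 2 worms farthest from the median, and between 0.39 and 0.91 within single ages. Of the 10 pairs of autosomal genes, 6 were called positive, led by eef-1A.1 with eef-2 (r = 0.72, rho = 0.60, permutation p = 1e-05 each, r = 0.68 without the 2 farthest worms). The 4 called negative all involved ifg-1, with pab-1 the strongest (r = -0.49, rho = -0.52, permutation p = 1e-05 each, r = -0.52 without the 2 farthest worms). Among the 20 pairs of 1 X-linked and 1 autosomal gene, 4 were called positive and 4 negative, and the 4 negative pairs were those of ife-1 with each X-linked gene (r -0.41 to -0.25). For ife-1 with ife-4 the permutation p was 0.00987 for r and 0.0817 for rho. The 2 eEF1A genes were not called (r = 0.12, adjusted p = 0.272). The share of pairs called among all genes, or among all genes on X, is not given here. With age means removed, 59 to 72 of the 100 genes most like each X-linked member also lay on X. Positive correlation with genes on X was therefore not particular to these members.

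The same deviations were set against those of the germline mean and of the mean of the 64 ribosomal protein genes. This gave 18 relations with p-values adjusted over the 18, of which 9 were called. The share of all genes related to these means is not given here, so the count cannot be set against a background. Worms with lower germline ratios for their age had higher eef-1A.2 (Pearson r = -0.62, Spearman rho = -0.59), pab-2 (r = -0.61, rho = -0.63) and ife-4 (r = -0.51, rho = -0.53), each with a permutation p of 1e-05 for both measures and an adjusted p of 3e-05. For ife-2 r was -0.34 (rho = -0.36, permutation p = 0.00046 for r and 0.0003 for rho, adjusted p = 0.00103 and 0.000771). For eef-2 r was -0.21 (rho = -0.24, permutation p = 0.0239 for r and 0.0123 for rho, adjusted p = 0.0478 and 0.0247). The germline-active ife-1 went the other way (r = 0.35, rho = 0.32, permutation p = 8e-05 for r and 0.00101 for rho, adjusted p = 0.000206 and 0.00227). Relations of pab-1 (r = -0.14, adjusted p = 0.246), eef-1A.1 (r = -0.07, adjusted p = 0.51) and ifg-1 (r = -0.05, adjusted p = 0.628) with the germline mean were not called.

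Within single ages r varied, and differences between ages were not tested. Within day 4, r with the germline mean was 0.42 for pab-2, 0.03 for eef-1A.2 and 0.36 for ife-2, whereas from day 8 to day 24 it lay between -0.85 and -0.50 for pab-2 and between -0.76 and -0.54 for eef-1A.2. For ife-1 it was -0.13 at day 4, 0.00 at day 8, 0.52 at day 12, 0.29 at day 14, 0.66 at day 16, 0.67 at day 20 and 0.69 at day 24. Without the 2 worms farthest from the median of the germline mean, r was -0.58 for eef-1A.2, -0.60 for pab-2, -0.47 for ife-4, -0.30 for ife-2, 0.26 for ife-1 and -0.24 for eef-2.

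With the ribosomal mean, 3 autosomal genes were called: eef-1A.1 (r = 0.66, rho = 0.66), eef-2 (r = 0.54, rho = 0.48) and ife-1 (r = 0.54, rho = 0.45), each with a permutation p of 1e-05 for both measures and an adjusted p of 3e-05. Without the 2 farthest worms r was 0.66 for eef-1A.1, 0.50 for eef-2 and 0.43 for ife-1. For eef-1A.1 r was positive in all 7 ages, between 0.32 at day 20 and 0.96 at day 24. Day 4 worms varied widely in this mean, with an SD of 1.18, and within day 4 r was 0.80 for eef-1A.1, 0.79 for ife-1, 0.73 for eef-2 and -0.80 for pab-2. Over all ages pab-2 (r = -0.20, adjusted p = 0.0531) and pab-1 (r = 0.20, adjusted p = 0.0539) were not called with the ribosomal mean, nor were eef-1A.2 (r = 0.01, adjusted p = 0.908), ife-2 (r = -0.07, adjusted p = 0.603), ife-4 (r = -0.16, adjusted p = 0.152) and ifg-1 (r = -0.09, adjusted p = 0.51). After quantile normalization pab-2 (r = -0.28, adjusted p = 0.00406) and ife-4 (r = -0.21, adjusted p = 0.0422) were called.

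**Figure D4:**
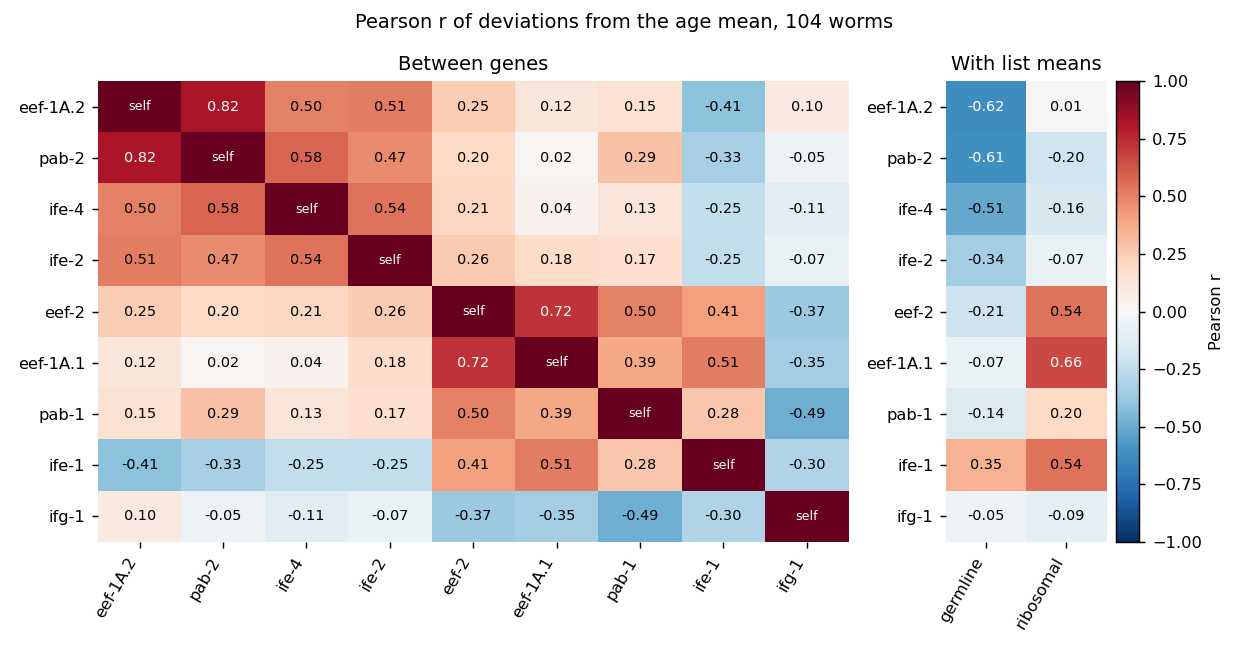
Pearson r between deviations from the age mean over all worms, for the 9 genes with each other and for the 9 genes with the germline and ribosomal means. The colour scale gives r, and the X-linked genes form 1 block of positive values (0.47 to 0.82).

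**Figure D5:**
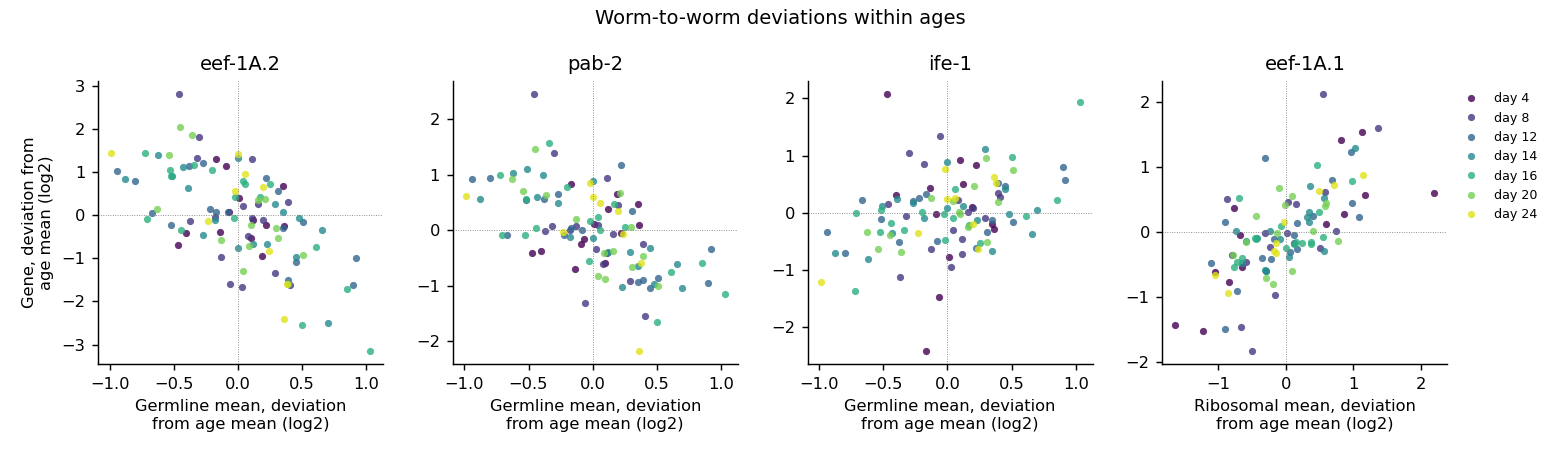
Deviation of a gene from its age mean (vertical axis, log2) against the deviation of the germline mean for eef-1A.2, pab-2 and ife-1, and of the ribosomal mean for eef-1A.1 (horizontal axis, log2). Each point is 1 worm coloured by age, with r of -0.62 for eef-1A.2, -0.61 for pab-2, 0.35 for ife-1 and 0.66 for eef-1A.1.

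The genes most alike across all worms, by Pearson r of the log2 ratios among genes with a gene name, are given as a description. For eef-1A.2 they were pab-2 (r = 0.89), the histone gene his-71 (r = 0.88, on X) and the kinase gene mak-2 (r = 0.87). For pab-2 they were eef-1A.2 (r = 0.89), efhd-1 (r = 0.85) and sto-1 (r = 0.85, on X). The 3 genes most like ife-4 were fis-2, bra-1 and mboa-3 (r 0.76 to 0.77), and those most like ife-2 were gas-1, hpl-1 and immt-1 (r 0.70 to 0.72), all 6 on X.

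Autosomal members had other neighbours. The genes most like eef-1A.1 were rpl-8 and rps-5, for ribosomal proteins, and icd-2 (r 0.73 to 0.74). For eef-2 they were rpl-7 (r = 0.80), the splicing factor gene sfa-1 (r = 0.76) and rplp-0 (r = 0.75), and for ife-1 rps-2 (r = 0.72), eif-3.D (r = 0.69) and pid-3 (r = 0.69). The likeness was weaker for pab-1, with rplp-0 (r = 0.61), nobh-1 (r = 0.59) and abcf-2 (r = 0.58), while ifg-1 was most like cand-1 (r = 0.70), pod-1 (r = 0.66) and ced-9 (r = 0.63). With age means removed, the named neighbours kept r between 0.53 and 0.82.

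The chromosome of the 100 most alike genes was counted after these values had been seen. Of the 100 genes most like each, 44 lay on X for eef-1A.2, 45 for pab-2, 66 for ife-2 and 54 for ife-4, and 4 to 9 for the 5 autosomal genes, while 13.7% of the 17917 genes with a known chromosome lie on X. With age means removed the numbers were 59, 64, 72 and 63 for those 4 genes and 2 to 16 for the autosomal ones. Over the trend, 17.7% of genes on X rose and 11% fell, and 13.3% of genes on autosomes rose and 15.1% fell, a difference that was not tested.

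Among the other genes of the pathway, more fell than rose. Of 55 listed, 51 were measured, of which 5 rose and 12 fell over the trend, with a median slope of -0.00556 per day beside 0.0002 per day over all genes. Of all genes, 13.7% rose and 14.2% fell. No list here or below was tested against these shares. Among 31 initiation genes 4 rose and 5 fell, close to the shares over all genes. Of 13 measured subunit genes of eIF3, which brings the small ribosomal subunit to the message, 2 rose, 1 fell and 10 were not called. Those that rose were eif-3.G (0.107 ± 0.0175 per day, adjusted p = 6.31e-07) and eif-3.I (0.0542 ± 0.0126 per day, adjusted p = 0.000387), and eif-3.H fell (-0.0444 ± 0.0131 per day, adjusted p = 0.00564). Mean eif-3.G was 0.87 ± 0.58 at day 24 (SD, n = 9) and -0.41 ± 0.72 at day 4 (SD, n = 13). Of 4 measured subunit genes of eIF2B, which reloads eIF2 with GTP, 2 fell, 1 rose and 1 was not called. Those that fell were eif-2Bgamma (-0.0419 ± 0.0079 per day, adjusted p = 1.31e-05) and eif-2Balpha (-0.039 ± 0.00853 per day, adjusted p = 0.000162), while eif-2Bepsilon rose (0.045 ± 0.0127 per day, adjusted p = 0.00399). The genes eif-3.H and eif-2Bepsilon were named after their values were seen.

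None of the 3 other elongation genes, for the exchange factor of eEF1A, was called. Their slopes were 0.0155 ± 0.00984 per day for eef-1G, 0.0168 ± 0.0132 for eef-1B.1 and -0.0189 ± 0.0134 for eef-1B.2 (SE), with adjusted p of 0.258, 0.386 and 0.324. Of 4 termination and recycling genes 2 fell, erfa-3, for a release factor (-0.0315 ± 0.00807 per day, adjusted p = 0.00135), and pelo-1, for the rescue of stalled ribosomes (-0.0254 ± 0.00924 per day, adjusted p = 0.0294). Of 9 regulators of translation 1 rose and 4 fell. The eIF2 kinase gene pek-1, on X, rose by 0.0374 ± 0.012 per day (adjusted p = 0.0118). The genes that fell included rheb-1, whose protein activates TOR (-0.0398 ± 0.00905 per day, adjusted p = 0.00028), daf-15, for the TOR partner Raptor (-0.0284 ± 0.00706 per day, adjusted p = 0.000938), and ifet-1, for an eIF4E-binding repressor of the germ line (-0.0449 ± 0.0139 per day, adjusted p = 0.0091). Of 4 mitochondrial translation factors 1 fell, tufm-2 (-0.0532 ± 0.0115 per day, adjusted p = 0.000131). Without the day 4 worms 7 of the 51 genes were called, beside 20.8% of all genes.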

How the data were processed

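Single worms were compared on 2-colour arrays, and each probe of each array has 1 log ratio in the deposited table, read here as log2 of Cy5 (worm) over Cy3 (pool). Per the labels, RNA of each worm and of the pool went through 2 rounds of amplification, amplified samples that failed quality control were discarded, and no dyes were swapped. The submitters' processing notes name limma, with no version. For background correction, within-array normalization, log base and direction, the method is not given in the sources used here. The median absolute deviation was 0.579 to 0.601 on every array and the array medians lay between -0.034 and 0.009. Signal over background was not weighed, because no intensities entered the analysis, and precision is limited by how many arrays there were. Of all values 0.537% were missing, 9 to 464 per array, and none for the 9 genes.

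Here, probes of 1 sequence name (splice letter dropped) were averaged, which gave 18889 genes from 22490 probes. Names and chromosomes came from a RefSeq table of the WBcel235 assembly, which matched 10826 genes with a gene name and 7091 with a sequence name only. Another 972 did not match. limma 3.58.1 (lmFit and eBayes, R 4.3.3) gave 1 linear model over all arrays, with age in days or as a factor, and adjusted by Benjamini-Hochberg over all genes. The fit was tested on simulated data. Differences between copies, and deviations from age means, were tested by permutation (100000 draws, within ages for the deviations) or exactly over 497420 assignments, with scipy 1.17.1 in Python 3.11.15. All permutation tests were two-sided.

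The members, gene lists and tests were chosen with earlier results of these data known. Named were the 9 genes, up to 4 genes of each other translation list with the smallest p over the trend, and the 3 named genes most like each of the 9. Alternatives were quantile normalization, median centring, array weights, probe medians, robust regression, fewer ages, the order of ages, covariates, rank correlation and the second deposited table, which held the same values. Of the listed translation genes, eif-2Bdelta, eif-3.X, ife-3 and eif-5 were not analysed here. Sequences of genes and probes were not used here.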

Additional observations from a re-analysis of the deposited data

Results flagged for a closer look

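Among 15 groups of 4 to 10 worms that were examined for a worm far from the rest, all at day 24, 2 held one, and chance gives about 1 in 20 groups. At day 24 the lowest pab-2 worm, worm 5, had a log2 ratio of 0.02, while the next lowest had 1.62 and the highest 3.06. Worm 5 also had the lowest eef-1A.2 value of its age, at -0.63. Without it the difference at day 24 against day 4 was 2.4 for pab-2 and 3.19 for eef-1A.2. In that fit 4 of the 9 genes were called, beside 17.3% of all genes. The lowest germline mean at day 24, in worm 2, was -1.53, against a median of -0.48 over the 9 worms. Worm 2 had the highest eef-1A.2 of day 24, at 3.22. Without worm 2 the difference at day 24 against day 4 was 2.05 for pab-2 and 2.71 for eef-1A.2. For that comparison 4 of the 9 genes were called, beside 14.7% of all genes. The trend of ife-1 was also called without worm 2, at 0.0304 per day (limma, adjusted p = 0.0451).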

How the results depend on the processing

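Of 749 values recomputed under other settings, 695 kept their direction and side of the threshold. The cause of the other changes was not tested. Probe medians could not move the estimates of the 9 genes, because each had 1 or 2 probes. The second deposited table held the same values. Agreement under these settings was therefore fixed in advance for the 9 genes. No paired analysis was possible because worms of different ages were separate animals, and the replicate numbers only name them. With fewer ages, the trend called 1 of the 9 genes over days 12 to 24 (5.55% of all genes), and 7 of the other 51 translation genes without day 4 (20.8% of all genes), beside 17 with all ages (27.8%). Over days 12 to 24, 1 pair difference was called, ife-2 minus ife-1 at -0.101, and the slope was -0.0109 for eef-1A.2 minus eef-1A.1, 0.0301 for pab-2 minus pab-1 and -0.0408 for ife-4 minus ife-1. Within single ages, the relations with the germline and ribosomal means called 4 at day 4, 5 at day 8, 3 at day 12, 3 at day 14, 6 at day 16, 4 at day 20 and 1 at day 24, beside 9 over all ages, and 11 over all ages after quantile normalization. Day 8 against day 4 gave 2 of the 9 genes after quantile normalization (12.4% of all genes) and 1 by robust regression (14.3%), day 12 against day 8 gave 5 with array weights (19.2%), and day 24 against day 12 gave 1 by robust regression (3.44%). The slope of ife-2 minus ife-1 was -0.0323 after quantile normalization. Other values near 0 that changed sign, none of them called, were ife-2 at day 24 against day 4 (0.01 by quantile normalization, 0.08 with array weights, 0.12 without day 24 worm 5, with -0.07 without day 24 worm 2 on the same side as the -0.02 over all worms), ife-2 at day 20 against day 4 (0.03 with array weights) and pab-1 at day 16 against day 4 (-0.03 with array weights and by robust regression). The others were eef-2 at day 16 against day 4 (-0.06 by robust regression), ifg-1 with the germline mean (0.01 by quantile normalization, 0.01 without the 2 farthest worms, 0.06 by Spearman's rho) and eef-1A.2 with the ribosomal mean (-0.06 by quantile normalization).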

Other observations

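At day 8, where none of the 9 genes was called against day 4, some worms already lay above every day 4 worm. Of the 17 day 8 worms, 5 lay above the highest day 4 worm for eef-1A.2, 4 for pab-2, 6 for ife-4 and 5 for ifg-1. In worm 4 of day 8, eef-1A.2 was 2.75 and pab-2 was 3.12, the highest values of both genes at that age, while worm 9 of day 8 had -1.69 for eef-1A.2 and -0.89 for pab-2. The lowest eef-1A.2 value of day 16 was -1.71, in worm 12, within the range of the day 4 worms, and that worm had the highest ife-1 value of its age, at 2.34. These worms were picked after their values were seen.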
